A study of Homo sapiens with 6 samples.

Results

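TENT5A and the other noncanonical poly(A) polymerase genes, 7 genes of 58735 in the deposited tables, were followed in C4-2B cells and in the cabazitaxel-resistant cells derived from them. TENT5A was chosen by its measured rise in the resistant cells, and the other 6 genes, TENT5B, TENT5C, TENT5D, TENT2, TENT4A and TENT4B, are its paralogs, taken by gene name whatever their values. C4-2B is an established castration resistant prostate cancer (CRPC) cell line. RC4-2B is 1 subclone of it, made by cycles of exposure to the taxane cabazitaxel (CBZ), which binds tubulin, from 0.1 nM up to 20 nM over 4 months, so the comparison is between parental cells and a single selected subclone. Both lines were grown for 72 h before RNA isolation, and no drug is named for that time. The sample labels give 10% FBS for the medium, while the study's RNA-seq methods also name charcoal-stripped serum. RNAseq was done on 3 biological replicates of each line.

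Noncanonical poly(A) polymerases add adenosines to the 3′ end of RNAs that are already processed, outside the cleavage and polyadenylation step carried out with the canonical enzyme PAPOLA. A longer tail generally protects a cytoplasmic mRNA and helps its translation, and deadenylases work in the opposite direction. The TENT5 proteins are cytoplasmic. TENT5A is known for its role in bone formation, where it extends the tails of collagen mRNAs in osteoblasts, and TENT5C is known as a growth suppressor in multiple myeloma. TENT2 (GLD2) is an enzyme of cytoplasmic polyadenylation, and TENT4A and TENT4B make mixed tails or mark nuclear RNAs for trimming or decay. An mRNA level says nothing of the activity of these enzymes, and no tail length was measured here.

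Of the 4 TENT5 genes 3 share a feature at an annotated start that the choice of genes did not use. The stretches below run from 40 to 11 bases before an annotated start site (RefSeq, GRCh38.p14, 5′ to 3′ on the strand of the gene). They are shown because TENT5A and its closest paralogs can be compared there directly. Capitals mark the motif TATAA, the core of a TATA box, searched on the strand of the gene with its first base between 40 and 20 bases before the start.
TENT5A (chr6:81752692-81752721, minus strand): agaagcccggTATAAaaaaagtactgaaga
TENT5B (chr1:27012861-27012890, minus strand): tcgcccgcggccTATAAgagtccgctgggc
TENT5C (chr1:117606008-117606037, plus strand): tggtcccgccgTATAAgaacggagggggcg
TENT5D (chrX:80420407-80420436, plus strand): ataatattccttgtctcctggcaacagtaa
TENT2 (chr5:79612401-79612430, plus strand): caccggaagtgtgacctttcgctccccgct
The motif began 30 bases before the start in TENT5A, 28 in TENT5B and 29 in TENT5C, and these letters were not in the window of TENT5D. Of 35116 promoters, 3.91% held the motif in this window, and 20.44% held it on either strand anywhere in the 300 bases around the start. None of the 3 promoters of TENT2 and TENT4B (which has 2) held it in the window. On either strand anywhere in the 300 bases, TENT5D and the upstream promoter of TENT4B held it as well. The genes with the motif in the window behaved differently in the libraries. TENT5A was far higher in RC4-2B, TENT5C overlapped between the lines and TENT5B was barely detected. A match of letters is a description and no evidence of a working site.

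TENT5A (ENSG00000112773) lies on the minus strand of chromosome 6, from 81491439 to 81752774 in GRCh38. In GENCODE release 44, 4 of its 5 transcripts lie between 81745730 and 81752774, and TENT5A-204 alone reaches down to 81491439. The tables give 1 count per gene, so transcripts could not be told apart. Raw counts ran from 25 to 52 across the parental libraries, and from 326 to 584 across the resistant ones. The groups did not overlap, and the lowest RC4-2B library was several times above the highest C4-2B library. The deposited FPKM values, which divide counts by gene length and library depth, were 0.220, 0.433 and 0.373 for parental replicates 1 to 3, against 3.01, 5.15 and 3.69 for resistant replicates 1 to 3. The mean level was 0.342 ± 0.110 FPKM (SD, n = 3) in C4-2B and 3.95 ± 1.09 FPKM (SD, n = 3) in RC4-2B, a ratio of 11.5. In CPM, reads relative to library size as scaled by edgeR's TMM method, the libraries stood at 1.49, 2.94 and 2.50, against 20.4, 33.3 and 24.7. The CPM means were 2.31 ± 0.745 and 26.1 ± 6.57 (SD, n = 3), and the log2 fold change was 3.49 with a standard error (SE) of 0.29. This value selected the gene and is given as a description, without a test. In bulk RNA, more cells that express a gene and more RNA per cell cannot be told apart.

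The rise of TENT5A was present in every RC4-2B library. Relative to the C4-2B mean, log2 CPM was higher by 3.13, 3.83 and 3.40 in RC4-2B replicates 1 to 3. C4-2B replicates 1 to 3 stood at -0.54, 0.38 and 0.16 on this scale, so the spread within C4-2B, where few reads fell on the gene, was larger than that within RC4-2B. RC4-2B replicate 2 was the highest library for TENT5A and stood apart from the other RC4-2B libraries over all genes. The SD of the log2 difference across genes with a mean log2 CPM above 2 was 0.628 between replicates 1 and 2 and 0.551 between replicates 2 and 3, but 0.244 between replicates 1 and 3. The difference of replicate 1 from replicate 2 followed transcript GC content, with a Spearman coefficient of 0.746 across genes, which are not independent. The GC content of the longest TENT5A transcript is 41.4%. Without RC4-2B replicate 2 the log2 fold change of TENT5A was 3.28 (SE 0.20), and 3.33 (SE 0.21) with a correction for GC content.

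**Figure D1:**
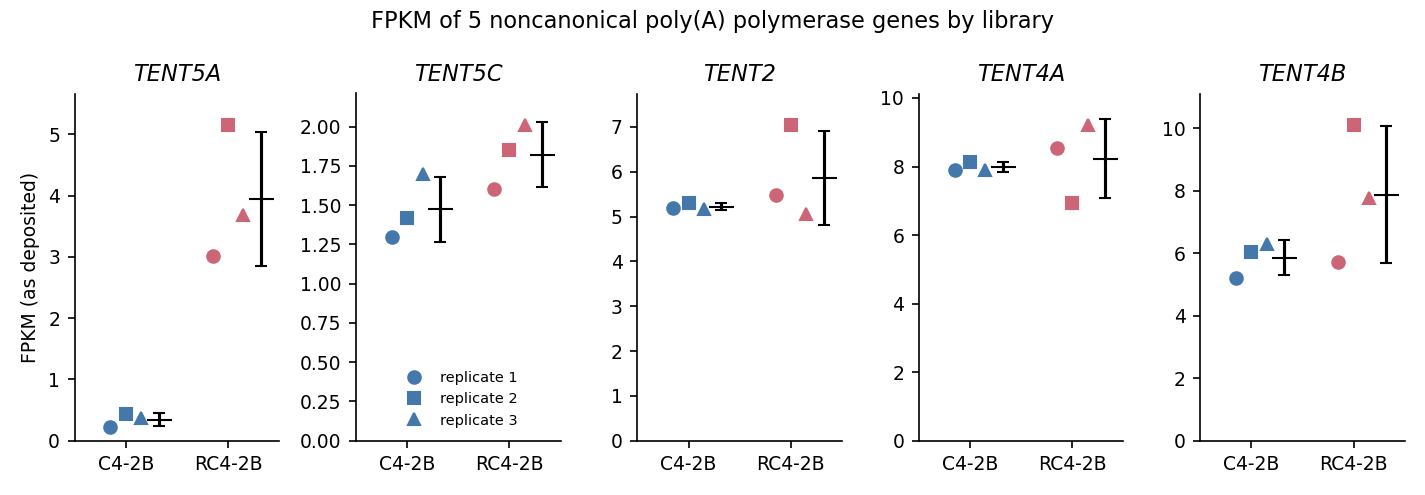
FPKM values (y axes, linear, from 0, scaled for each gene) of TENT5A, TENT5C, TENT2, TENT4A and TENT4B in C4-2B (blue) and RC4-2B (red). Each symbol is 1 library, with its shape giving the replicate number, and the black mark is the mean ± SD of 3 libraries. The TENT5A libraries fall between 0.220 and 0.433 FPKM in C4-2B and between 3.01 and 5.15 FPKM in RC4-2B, while the groups overlap for the other 4 genes.

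The other TENT5 genes did not change detectably. TENT5C (ENSG00000183508, chromosome 1, from 117605934 to 117628372) stood at 1.30, 1.42 and 1.70 FPKM for parental replicates 1 to 3, against 1.60, 1.85 and 2.01 FPKM for resistant replicates 1 to 3. The groups overlapped, since C4-2B replicate 3 lay above RC4-2B replicate 1. Its log2 fold change was 0.28 (SE 0.17, edgeR adjusted p = 0.339, by Benjamini-Hochberg over 15054 genes), and 2 standard errors to each side span -0.06 to 0.62. TENT5B (ENSG00000158246, chromosome 1) had at most 2 counts per library in either line. TENT5D (ENSG00000174016, chromosome X), a gene known from the testis, had 0 counts in all 6 libraries. At this depth 3 counts, taken as the floor, correspond to 0.0639 to 0.0709 FPKM for TENT5B and 0.0472 to 0.0524 FPKM for TENT5D, a limit that covers counting error only, so neither gene could be compared between the lines.

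The leading TENT5 transcript therefore differed between the lines. TENT5A gave 18.4 ± 4.17% (SD, n = 3) of the summed TENT5 FPKM in C4-2B and 67.5 ± 4.99% (SD, n = 3) in RC4-2B. The ratio of TENT5A to TENT5C, which does not depend on library scaling, was 0.170, 0.305 and 0.220 for parental replicates 1 to 3, against 1.88, 2.77 and 1.83 for resistant replicates 1 to 3. TENT5C was thus the more abundant of both in every C4-2B library and TENT5A in every RC4-2B library. In reads, the closest libraries were C4-2B replicate 2, where 52 of 216 TENT5 counts fell on TENT5A (24.1%, 95% Wilson interval 18.9 to 30.2%), and RC4-2B replicate 3, where 65.9% of 639 did (interval 62.1 to 69.5%). The summed TENT5 level was 1.83 ± 0.282 FPKM in C4-2B and 5.80 ± 1.18 FPKM in RC4-2B (SD, n = 3). These shares contain the gain that selected TENT5A and are descriptions. Reads of TENT5A are not easily confused with those of its paralogs, as 0 of the 6139 stretches of 50 bases in its transcripts occurred in a transcript of another gene in GENCODE release 44. The 4 genes that overlap the TENT5A span in the deposited table had 0 counts in all 6 libraries.

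**Figure D2:**
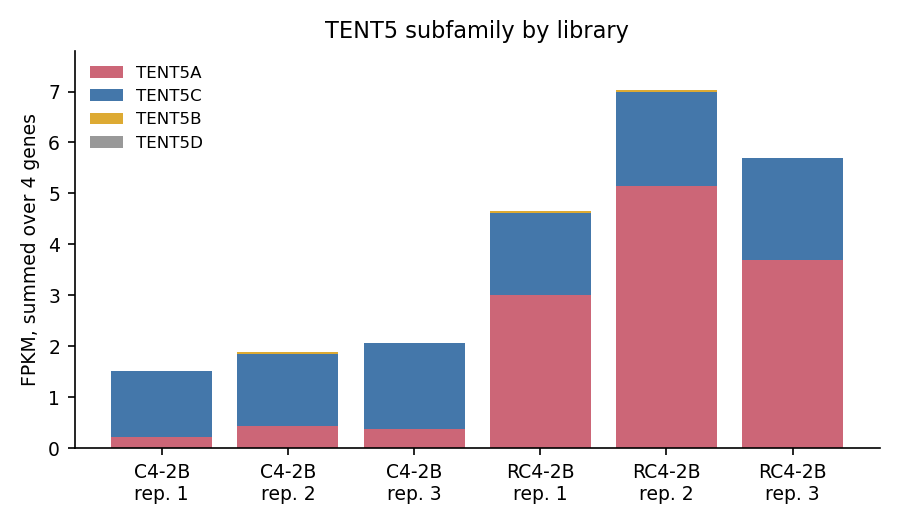
FPKM of TENT5A, TENT5C, TENT5B and TENT5D stacked for each library (y axis, linear), with C4-2B replicates on the left and RC4-2B replicates on the right. TENT5C makes up most of each C4-2B bar and TENT5A most of each RC4-2B bar, and TENT5D is at 0 throughout.

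The more distant family members were expressed at higher levels than the TENT5 genes and did not pass the test. TENT2 (ENSG00000164329, chromosome 5, from 79612120 to 79686648) measured 5.19, 5.30 and 5.16 FPKM for the parental replicates, against 5.49, 7.04 and 5.05 FPKM for the resistant ones. RC4-2B replicate 2 was the only library that stood away from the others, and the log2 fold change was 0.14 (SE 0.14, edgeR adjusted p = 0.544). TENT4A (ENSG00000112941, chromosome 5, from 6713007 to 6757048) measured 7.89, 8.14 and 7.89 FPKM for the parental replicates, against 8.53, 6.95 and 9.21 FPKM for the resistant ones. Here RC4-2B replicate 2 was the lowest of all libraries and the other RC4-2B libraries were the highest, with a log2 fold change of 0.02 (SE 0.14, edgeR adjusted p = 0.929).

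TENT4B (ENSG00000121274, chromosome 16, from 50152918 to 50235310) had the largest log2 fold change among the tested paralogs. Its FPKM values were 5.22, 6.05 and 6.30 for parental replicates 1 to 3, against 5.73, 10.1 and 7.78 for resistant replicates 1 to 3. RC4-2B replicate 1 lay within the C4-2B range, and the log2 fold change was 0.40 (SE 0.19, edgeR adjusted p = 0.255). Without RC4-2B replicate 2 it was 0.20 (SE 0.12, edgeR adjusted p = 0.298), and without RC4-2B replicate 1 it was 0.58 (SE 0.15, edgeR adjusted p = 0.0689). These 3 genes differ in base composition, with a GC content of 37.7% in TENT2, 40.1% in TENT4B and 56.9% in TENT4A. RC4-2B replicate 2 was the highest RC4-2B library for TENT2 and TENT4B and the lowest for TENT4A. With a correction for GC content the log2 fold change was -0.06 for TENT2, 0.21 for TENT4B, 0.19 for TENT4A and 0.17 for TENT5C, with standard errors of 0.10, 0.12, 0.09 and 0.16, and 0 of the 4 passed the threshold, against 7.68% of all genes in that fit. Exact two-sided permutation tests on FPKM gave p = 0.2 for TENT5C, 0.4 for TENT2, 0.7 for TENT4A and 0.3 for TENT4B, where 3 libraries against 3 allow no p below 0.1.

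Of the 6 paralogs 4 had enough reads to be tested, and 0 of these 4 had an adjusted p-value under 0.05 from edgeR, against 1.98% of all genes tested. At an unadjusted p-value under 0.05 the count was also 0, against 21.4% of all genes. DESeq2 and limma likewise called 0 of the paralogs. With 4 genes, nothing can be read from this count against either share. A miss of the threshold does not show that a gene was level, and the SE gives only a rough range. For TENT4A, 2 standard errors to each side of the log2 fold change span -0.25 to 0.30, for TENT2 -0.14 to 0.42 and for TENT4B 0.02 to 0.78. The TENT4B span leaves out 0, yet its unadjusted edgeR p was 0.0658. Such spans are narrower than the test allows with so few libraries and do not show a rise.

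**Figure D3:**
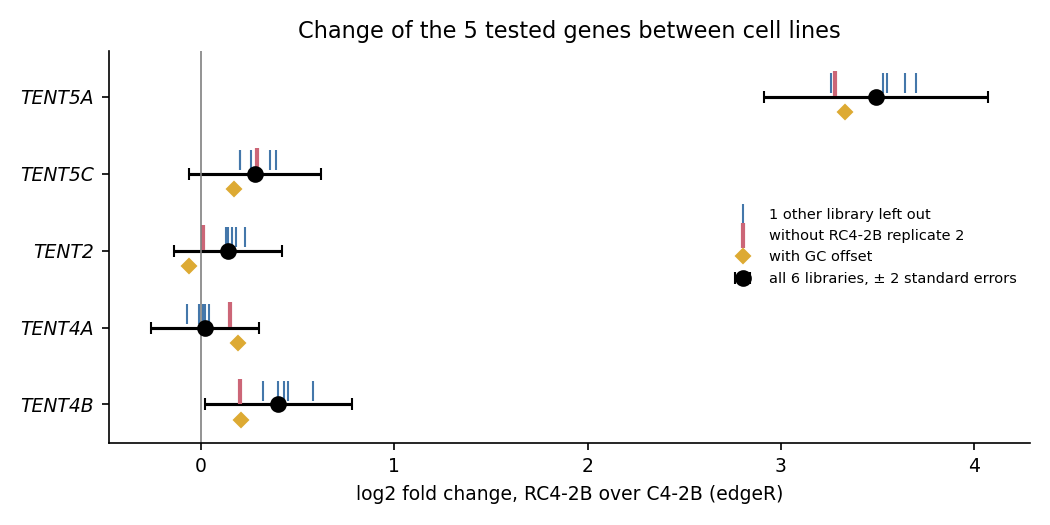
The log2 fold change (x axis) of RC4-2B over C4-2B for the 5 tested genes (y axis). Black points and bars give edgeR's value from all 6 libraries ± 2 standard errors, blue ticks the values with 1 library left out, the red tick the value without RC4-2B replicate 2, and the yellow diamond the value with a GC offset. TENT5A lies between 3.26 and 3.70 in the fits without 1 library, and the other 4 genes lie between -0.07 and 0.58.

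Per unit of length, the order of the family was the same in all 3 C4-2B libraries, with TENT4A above TENT4B, TENT2, TENT5C and TENT5A. TENT4A was at 7.98 ± 0.145 FPKM, TENT4B at 5.86 ± 0.567 and TENT2 at 5.21 ± 0.0736 FPKM (SD, n = 3). The ranges of TENT4B (5.22 to 6.30 FPKM) and TENT2 (5.16 to 5.30 FPKM) overlapped across libraries, so these neighbours did not separate beyond their spread, while the other neighbours did. In RC4-2B the means were 8.23 ± 1.16, 7.88 ± 2.20 and 5.86 ± 1.04 FPKM (SD, n = 3) for TENT4A, TENT4B and TENT2, and their ranges overlapped. The lowest TENT2 value (5.05 FPKM, replicate 3) also lay under the highest TENT5A value (5.15 FPKM, replicate 2). In RC4-2B replicate 2 TENT4B was above TENT2 and TENT2 above TENT4A, whereas replicates 1 and 3 kept the C4-2B order of these 3 genes. TENT5A moved from rank 5 in every C4-2B library to rank 4 in every RC4-2B library, within each library still below TENT2. Summed over the 7 genes, the level was 20.9 ± 0.924 FPKM in C4-2B and 27.7 ± 3.35 FPKM in RC4-2B (SD, n = 3), of which TENT5A gave 1.63 ± 0.470% and 14.0 ± 2.19%.

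The wider machinery of poly(A) tails was read from 6 lists with 75 genes, of which 69 had enough reads. None of them (0 of 69) passed the threshold in edgeR, against the background of 1.98% given above, and their median log2 fold change was 0.09 against 0.01 over all genes tested. At an unadjusted p-value under 0.05 there were 17 of 69 genes, 9 higher and 8 lower, a share near the 21.4% of all genes tested. DESeq2 called 1 gene, EXOSC7, with a lower level in RC4-2B, where it called 5.93% of all genes with an adjusted p-value. The 3 limma fits called 0, against 0.868%, 0.717% and 0.124% of all genes.

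Among the other tailing enzymes 6 of 7 were tested, with log2 fold changes from -0.61 (TUT1, which uridylates U6 RNA) to 0.43 (PAPOLA) and a median of 0.22. PAPOLA, the main nuclear poly(A) polymerase, averaged 286 ± 7.90 CPM for the parental and 387 ± 115 CPM for the resistant cells (SD, n = 3), with an SE of 0.19 and an edgeR adjusted p = 0.228. It stood at 317, 519 and 324 CPM in RC4-2B replicates 1 to 3. Its log2 fold change was 0.16 (SE 0.07) without replicate 2 and 0.23 (SE 0.11) with the correction for GC content. The uridylyl transferases TUT4 and TUT7, which mark RNAs with short tails, had log2 fold changes of 0.25 and 0.20 (edgeR adjusted p = 0.296 and 0.434). All 21 deadenylase genes were tested, with a median log2 fold change of 0.18 and a range from -0.18 (PAN2) to 0.60 (CNOT7, a catalytic subunit of the CCR4-NOT complex). CNOT7 stood at 178, 364 and 185 CPM in RC4-2B replicates 1 to 3, against 160 ± 3.07 CPM (SD, n = 3) for the parental cells, so replicate 2 carried most of the difference (edgeR adjusted p = 0.222). Of the 14 poly(A)-binding proteins and partners 11 were tested, with a median of -0.03. PABPN1, the nuclear poly(A)-binding protein, had the lowest log2 fold change of these, -0.91 with an SE of 0.61. It stood at 67.7, 6.90 and 51.1 CPM in RC4-2B replicates 1 to 3, so replicate 2 again stood apart, and its counts are uncertain because it shares exons with a read-through gene.

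Genes of cytoplasmic polyadenylation and partners of TENT proteins numbered 12, with 11 tested and a median of -0.06. CPEB2, an mRNA-binding regulator of cytoplasmic polyadenylation, averaged 3.18 ± 0.613 CPM for the parental and 1.67 ± 0.368 CPM for the resistant cells (SD, n = 3), with a log2 fold change of -0.92 (SE 0.28, edgeR adjusted p = 0.126). QKI, an RNA-binding protein that recruits TENT2, had a log2 fold change of 0.16 (edgeR adjusted p = 0.582). The 17 genes of the RNA exosome and its helper complexes had a median of 0.13, from -0.54 (EXOSC7, a core subunit) to 0.29 (RBM7). MTREX and ZCCHC7, which work with TENT4B in the nuclear TRAMP-like complex, had log2 fold changes of 0.27 and 0.23 (edgeR adjusted p = 0.301 and 0.385). The 4 mRNAs that TENT5A is known to act on in osteoblasts were also read. COL1A2 had 0 counts in all libraries, COL1A1 was at 23.3 ± 2.02 and 28.7 ± 7.28 CPM (SD, n = 3), SERPINF1 at 3.23 ± 0.612 and 3.43 ± 0.697 CPM, and SPARC at 1.62 ± 0.268 and 0.749 ± 0.128 CPM. Of these SPARC lay farthest from 0, at -1.10 on the log2 scale (SE 0.31, edgeR adjusted p = 0.110), and did not pass the test.

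The number of called genes moved with the libraries used. In place of 298 genes, 44, 57 and 56 passed when C4-2B replicates 1, 2 and 3 were left out in turn, 474 when RC4-2B replicate 1 was and 78 when RC4-2B replicate 3 was. In these fits 0 genes of the lists passed. Without RC4-2B replicate 2 1925 of all genes passed (12.5%). Among the lists BTG1, CNOT8, PABPC1L, PABPN1, CPEB2, EXOSC4, EXOSC7 and COL1A1 passed, a share of the tested list genes near that 12.5%. By list these were 2 of 21 deadenylase, 2 of 11 poly(A)-binding, 1 of 11 cytoplasmic polyadenylation and 2 of 17 exosome genes, and 1 of 3 osteoblast mRNAs. The other tailing enzymes (0 of 6) and the TENT paralogs (0 of 4) did not pass. With so few genes in each group, nothing can be read from these counts. BTG1 and CNOT8 act in deadenylation. These genes were named after their values were seen.

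**Figure D4:**
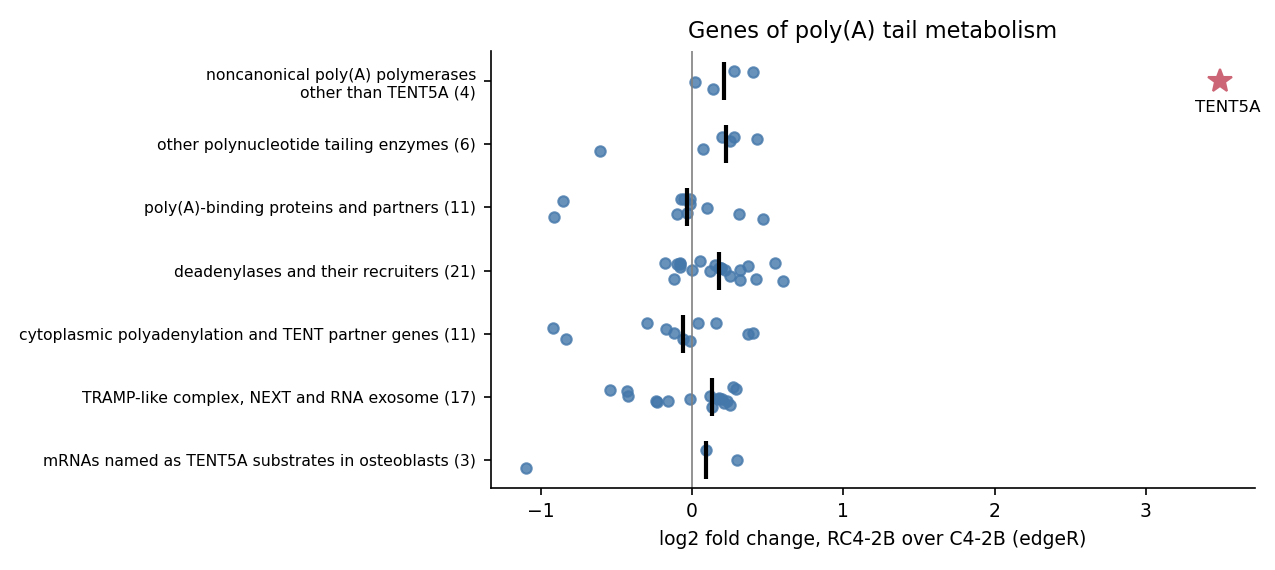
The log2 fold change (x axis) of RC4-2B over C4-2B for each tested gene of 6 lists and of the TENT family (y axis, number of genes in parentheses, vertical scatter without meaning). Black ticks are medians without TENT5A, which is the star at 3.49. The 69 list genes lie between -1.10 and 0.60.

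Few genes near TENT5A were expressed. Of 13 other genes that start within 1 Mb of the start of TENT5A, 9 had 0 counts in all 6 libraries and 3 were tested. LINC02542, a long noncoding RNA gene that starts 181 kb away, measured 1.37, 1.36 and 2.39 CPM for the parental replicates, against 2.25, 4.56 and 2.47 CPM for the resistant ones. TPBG, which encodes the trophoblast glycoprotein and starts 610 kb away, measured 1.91, 2.09 and 2.56 CPM for the parental replicates, against 5.13, 2.28 and 4.41 CPM for the resistant ones. The groups overlapped for both genes, with log2 fold changes of 0.86 and 0.84 (SEs 0.37 and 0.33, edgeR adjusted p = 0.229 and 0.197). IBTK, an inhibitor of Bruton's tyrosine kinase at 495 kb, was well expressed at 78.7 and 89.4 CPM on average, with a log2 fold change of 0.19 (edgeR adjusted p = 0.425). None of the 3 (0 of 3) passed the threshold in edgeR, against 1.98% of all genes, and 2 had an unadjusted p-value under 0.05, against 21.4%. Without RC4-2B replicate 2, where 12.5% of all genes passed, TPBG was the 1 neighbour past the threshold, with a log2 fold change of 1.12 (SE 0.24, edgeR adjusted p = 0.00718).

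The genes whose pattern over the 6 libraries was most like that of TENT5A were found among 15053 tested genes by the root mean square difference of log2 CPM, each gene centred on its C4-2B mean. They were SAGE1 (0.40), ZNF492 (0.41), BCHE (0.44), the pseudogene ALOX12P2 (0.49) and PAX5 (0.51). ZNF492, a zinc finger gene on chromosome 19, measured 1.55, 2.09 and 2.56 CPM for the parental replicates, against 13.8, 20.2 and 15.3 CPM for the resistant ones, with the highest value in replicate 2 as for TENT5A. BCHE, which encodes butyrylcholinesterase, measured 2.57, 5.27 and 9.62 CPM for the parental replicates, against 56.8, 78.0 and 75.0 CPM for the resistant ones. In C4-2B SAGE1 had few reads and ALOX12P2 had 0 counts in every library, so their likeness depends on the 2 counts added before taking logarithms. ALOX12P2 had 13, 13 and 18 counts in RC4-2B replicates 1 to 3. Its edgeR log2 fold change was 6.91 (SE 0.90), far from the 3.49 of TENT5A. ZNF492 and ALOX12P2 have similar copies elsewhere in the genome, so their counts are uncertain. None of these genes lies on chromosome 6.

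All 7 markers of luminal prostate epithelium read here were detected in both lines, but not all at a like level. Their summed level was 3185 to 3335 CPM in C4-2B and 2076 to 2323 CPM in RC4-2B, a difference in which KLK3 was the largest part. KLK3 (974 and 48.4 CPM, log2 fold change -4.33, edgeR adjusted p = 0.000154) and TMPRSS2 (184 and 87.2 CPM, -1.08, adjusted p = 0.0190) were lower in RC4-2B. KLK2 stood at 238 and 133 CPM without overlap of the groups but did not pass (edgeR adjusted p = 0.131), and FOLH1, KRT8 and KRT18 overlapped between the lines. The part of these differences in the level of TENT5A was not tested. The defining stromal genes COL1A2, DCN and LUM had 0 counts in all libraries, and COL1A1 was the only stromal marker with more than 3 counts. The 5 osteoblast markers summed to 3.82 to 4.98 CPM in C4-2B and 2.94 to 3.76 CPM in RC4-2B, nearly all of it RUNX2. The leukocyte genes PTPRC, CD3E, CD68 and LYZ together did not exceed 0.453 CPM in any library. Total counts per library were between 15707134 and 18052517.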

How the data were processed

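Total RNA of 6 cultures was sequenced by the study, reads were mapped to GRCh38 with STAR, and 2 tables were deposited. The deposited counts are whole reads per gene, not normalized. The deposited FPKM table could be rebuilt from those counts with the gene lengths and 1 total per library (between 17878222 and 19817304). The program that counted reads, whether it used strand, and its gene annotation are not given in the sources used here. Library columns were matched by the names in the sample labels, and libraries count as replicates because the labels call them biological replicates.

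The count table was tested with edgeR 4.0.16 under R 4.3.3 (TMM scaling, filterByExpr with a minimum of 10 counts, quasi-likelihood test of cell line alone, Benjamini-Hochberg adjustment over 15054 genes, threshold 0.05). An SE is the size of the log2 fold change over the root of its F statistic. The method was tested on simulated data, which held no GC trend and no outlying library, so that test does not cover these features of RC4-2B replicate 2. No 2 libraries of a line agreed within sampling noise (chi-square per gene of 3.37 to 65.0). The genes, lists and tests were chosen with earlier results of these data known. Named genes are the 7 members, genes of the lists past the threshold, PAPOLA, tested genes within 1 Mb, and the 5 most alike; other list genes in the text were named after their values were seen. DESeq2 1.42.0, limma 3.58.1 on log2(FPKM + 1) and log2(FPKM + 0.1), other scalings and filters, a replicate block and leaving out each library were alternatives. A GC correction, added after the data were seen, used each library's lowess trend (span 0.2) of log2 CPM on the GC content of the longest GENCODE release 44 transcript, known for 99.6% of tested genes, as an offset; it also removes a mean GC trend between the lines. Promoter sequences come from RefSeq (GRCh38.p14), which held 6 of the 7 genes. Wilson intervals and floors cover counting error only.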

Additional observations from a re-analysis of the deposited data

How the results depend on the processing

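The log2 fold change of TENT5A stayed above 0 in all 18 alternatives. The gene was chosen by this rise in the same libraries, so its sign was given beforehand and only the size is described. It was 3.49 from all libraries, between 3.26 and 3.70 with each library left out in turn, and 1.86 with limma on log2(FPKM + 1), a scale that compresses changes from a level under 1 FPKM, with either filter. The count of called TENT paralogs was 0 in all 17 alternatives, and that of the other tailing enzymes too. The share over all genes ran from 0.124% to 13.3% in these fits. With so few genes in either group, nothing can be read from these counts. With the replicate number as a block, TENT5A was at 3.51, TENT4B at 0.37 and the counts of called paralogs, list genes and neighbours stayed at 0, while 129 of all genes passed in place of 298. Deviations of same-numbered libraries from the mean of their line correlated across genes at 0.318, 0.178 and -0.0691 for replicates 1, 2 and 3. Between differently numbered libraries of the lines the correlations ran from -0.291 to 0.173. With 3 libraries per line these values cannot settle whether the numbers pair the libraries. TENT4A fell below 0 without RC4-2B replicate 1 (-0.01) or 3 (-0.07) and was 0.15 without replicate 2, TENT2 fell below 0 with the GC offset (-0.06, and -0.06 also without RC4-2B replicate 2), and IBTK under the same settings (-0.02 and -0.02).

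The counts of the lists, all 0 from all libraries, moved as follows. With each library left out they ranged from 0 to 2 for poly(A)-binding proteins, deadenylases and the exosome, and from 0 to 1 for cytoplasmic polyadenylation, the osteoblast mRNAs and the neighbours of TENT5A, and each value above 0 came from the fit without RC4-2B replicate 2 (12.5% of all genes called). With no filter on low counts (4.29% of all genes called) 1 poly(A)-binding gene, 1 deadenylase gene, 1 cytoplasmic polyadenylation gene and 1 exosome gene passed, and with DESeq2 (5.93%) 1 exosome gene. With the GC offset (7.68%) 1 cytoplasmic polyadenylation gene (CPEB2) and 1 osteoblast mRNA (COL1A1) passed. With the GC offset and without RC4-2B replicate 2 (13.3%) the counts were 2, 1, 2, 2, 1 and 1 for poly(A)-binding, deadenylase, cytoplasmic polyadenylation and exosome genes, osteoblast mRNAs and neighbours. Within 5 Mb of TENT5A 1 of 23 tested genes passed, against 1.98% of all genes, and nothing can be read from so small a count. The gene was SNAP91, which was named after its values were seen. The cause was not tested. Depth limits what can be said of TENT5B and TENT5D, which stayed at or under 3 counts. TENT5A had few reads in C4-2B. The SE of its log2 fold change was 0.29 from all libraries and 0.20 without RC4-2B replicate 2, and the sources of this error were not tested.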
